A study of Macaca mulatta with 6 samples.

Results

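The vehicle-treated luteal cells of the rhesus macaque, 3 of the 6 samples of the series, are described here by the signal of each named gene on each array. The 3 samples were chosen by their labels, which give 0.1% dimethyl sulfoxide (DMSO) as the treatment and number them as biological replicates 1 to 3. Each gene was represented by 1 probe set, the one with the highest mean over all 6 arrays, which gave 14132 named genes. The other 3 samples received 1 µM T0901317, a compound that activates the liver X receptors, and no difference between the treatments is given here.

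Both groups held dispersed cells of the corpus luteum collected 12 days after the luteinizing hormone surge. The cells were plated on fibronectin without serum, in a medium with insulin, transferrin and selenium, and treatment began straight after plating and lasted 24 h. No genetic change is named for either group. The labels describe no sort or enrichment of 1 cell type, so the cultures can hold every cell type that the dispersion released. The design text calls the replicates paired. Whether same-numbered cultures, or different numbers, came from the same or separate animals, and whether animals were pooled, the sources used here do not state, so the spread between arrays may be biological or technical.

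The corpus luteum is the gland that forms from the ovulated follicle and secretes progesterone. Its steroid-making cells take up or make cholesterol, the carrier STAR moves it into the mitochondrion, side-chain cleavage with electrons from ferredoxin makes pregnenolone, and a hydroxysteroid dehydrogenase turns that into progesterone. The gland is also rich in vessels, fibroblasts and immune cells, and macrophages are known to take part in its regression. Since RNA was extracted from whole cultures, fewer cells of a type and less RNA per cell cannot be told apart.

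Values are RMA signals on a log2 scale, in which a difference of 1 is a factor of 2. A signal depends on the probes as well as on the transcript, so an order of genes by signal is not an order of abundance. Each level is given as the mean ± SD over the 3 vehicle arrays (n = 3). As a dim-signal reference, the 95th percentile of 42 Bacillus control probe sets was taken on each array, and it lay at 4.63, 4.76 and 4.57 in replicates 1, 2 and 3. These control probe sets, which match bacterial transcripts, had a median level of 3.02 and spanned 2.17 to 5.99.

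Replicate 3 stood apart from the others. Over 52766 probe sets its array correlated with replicates 1 and 2 at a Pearson r of 0.963 and 0.962, against 0.985 between replicates 1 and 2, as a description across probe sets of arrays that share 1 design. The SD of all signals was 2.18, 2.16 and 2.00 in replicates 1, 2 and 3, and the mean difference between 3' and 5' control probe sets for actin, GAPDH and EF1A was 0.85, 0.76 and 1.89. Replicate 3 therefore had the narrowest distribution of signals and the strongest 3' excess. The spiked-in controls were also highest there, with 9.98, 10.19 and 11.21 for bioC and 12.18, 12.30 and 13.18 for bioD. The medians of the named genes were 6.89, 6.91 and 6.74.

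The level of the 14132 named genes ran from 2.03 to 14.50, with a median of 6.84. The 10th percentile was 4.32 and the 90th was 9.90. Of these genes, 11763 lay above the dim-signal reference on all 3 arrays, which was 83.2% and is the background for the counts of list members given below. Another 1475 (10.4%) lay at or below it on all 3, and 894 lay above it on 1 or 2 arrays. The median SD over the arrays was 0.24, and 7735 genes (54.7%) spanned less than 0.5 between the lowest and the highest array. Only 229 genes (1.62%) spanned more than 2.

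**Figure D1:**
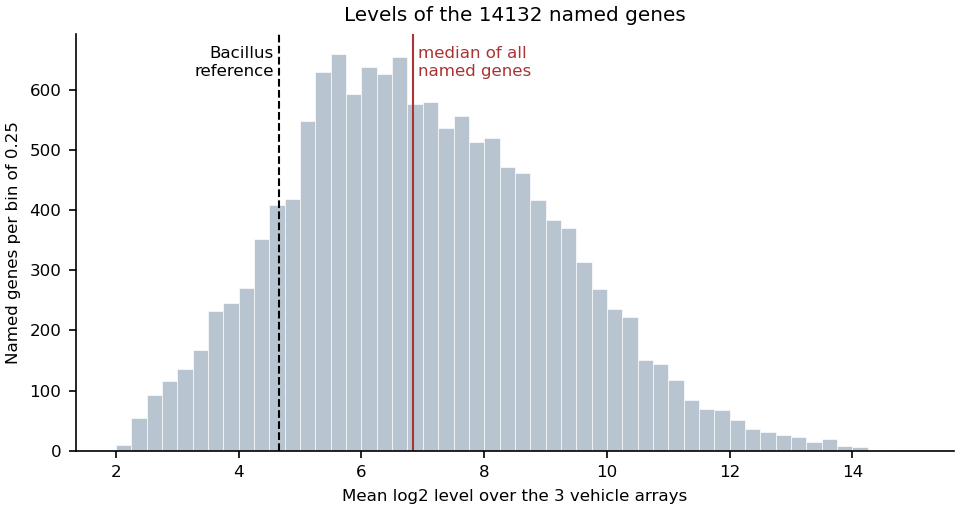
Number of named genes per bin of 0.25 by mean log2 level over the 3 vehicle arrays, with all 14132 genes counted. The dashed line is the mean Bacillus reference of 4.66 and the solid line the median of all named genes, 6.84; 1475 genes lay at or below the reference on all 3 arrays.

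The brightest named genes were those of metal binding, antigen presentation, the cytoskeleton, matrix turnover and inflammation, with no steroid or cholesterol gene among the first 20. MT2A, a metallothionein that binds zinc and copper, had the highest level of all, with 14.61, 14.62 and 14.27 on the 3 arrays. B2M, the light chain of class I major histocompatibility molecules, measured 14.13, 14.13 and 14.31. Their ranges over the arrays were 0.35 and 0.18, and B2M was highest in replicate 3, where MT2A was lowest.

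Structural genes came next. TMSB10, an actin-binding thymosin, reached 14.13 ± 0.13, and TMSB4X, the related thymosin, 13.72 ± 0.05. The intermediate filament gene VIM reached 14.08 ± 0.08, and the actins ACTB and ACTG1 reached 13.85 ± 0.21 and 13.55 ± 0.32. VIM spanned 0.14 over the arrays and TMSB4X 0.10, while both actins were lowest in replicate 3.

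TIMP1, an inhibitor of matrix metalloproteinases, measured 14.05, 14.32 and 13.42 and was lowest in replicate 3. MMP1, the interstitial collagenase, measured 13.66, 13.68 and 13.48. These 2 genes of matrix turnover were thus both in the brightest 20, with ranges of 0.90 and 0.21. The mitochondrial superoxide dismutase SOD2 had a level of 13.92 ± 0.10.

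Inflammatory signals were at the top of the distribution in vehicle alone. IL1B, the cytokine interleukin 1 beta, measured 13.52, 13.88 and 14.02. CCL2, which attracts monocytes, measured 13.72, 13.84 and 13.85. The spread of CCL2 was 0.13 across arrays. Its 1 probe set did not pass the test between replicate numbers described below (limma adjusted p = 0.236). The limma fit without replicate 3 gave an adjusted p of 0.0163, which alone is not taken as a difference.

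ENO1 (a glycolytic enzyme, 13.54 ± 0.21), NPM1 (a nucleolar protein, 13.52 ± 0.22), H3-3B (a gene for histone H3.3, 13.50 ± 0.04), MAMU-AG and MAMU-B (class I major histocompatibility genes, 13.55 ± 0.36 and 13.55 ± 0.10) and RALGAPA1, LIN7A and ZNF652 completed the 20. The 2 class I genes belong to a family of near-identical copies whose probes can share signal, so which gene the signal belongs to is uncertain. Reaching 20 such genes meant passing over 5 ribosomal protein genes and 10 genes with provisional symbols among the first 35. The 35 measured ribosomal protein genes had a median level of 12.96 and a range of 5.55 to 13.93.

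Probe sets of 1 gene often disagreed. Of the brightest 20, 16 had a further probe set, and in 11 the dimmest was 5 or more log2 units below the brightest. RALGAPA1, which regulates Ral GTPases, is one of them: its probe sets measured 13.74, 7.47, 7.24 and 3.94. LIN7A, a scaffold of cell junctions, had 13.66 at its brightest probe set, 5.28 at the next and 3.02 at its dimmest, and ZNF652, a zinc finger protein, had 13.65 and 5.92. When a gene was represented by the mean of its probe sets, 6 of the 20 stayed among the brightest 20, and without probe sets marked as cross-hybridising or shared (names ending in _x_at or _s_at) 11 did.

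Differences between the 3 replicates were tested with limma over all 6 arrays, with the replicate number as the tested term and the treatment as a covariate, since 1 vehicle array per number leaves no residual. A moderated F-test was used, with Benjamini-Hochberg adjustment over 52766 probe sets and a threshold of 0.05. It tests whether any replicate number differs from another and has no direction. It called 40.2% of all probe sets and 46.2% of the named genes (6527), against 24.5% (3463) when replicate 3 was left out, so a call is common and the counts below are to be read against these shares. Among the 1414 named genes in the top decile of level, 73.1% were called, which is the background for lists of bright genes. What sets the replicate numbers apart (animal, preparation, RNA quality or array) cannot be told apart.

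Of the 93 listed genes of steroid hormones, their regulators and receptors, 62 were measured, 56 lay above the dim-signal reference on all 3 arrays, and their median level was 7.04. The other 31 were not analysed here, among them CYP11A1, the side-chain cleavage enzyme, HSD3B1, and LHCGR, the receptor for luteinizing hormone. The replicate test called 33 of the 62 (53.2%), near the share of all named genes.

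The machinery that delivers cholesterol and electrons for progesterone was bright. STAR measured 10.97, 11.48 and 10.54 (11.00 ± 0.47), and FDX1, the ferredoxin of the mitochondrial steroid enzymes, measured 11.03, 11.35 and 11.13 (11.17 ± 0.16). Both were at or above the 96.0th percentile of named genes. STAR was highest in replicate 2 and lowest in replicate 3 (limma adjusted p = 6.80e-05). A second FDX1 probe set gave 11.01 ± 0.24 and its other 1 gave 4.42 ± 0.17.

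TSPO, an outer mitochondrial membrane protein linked to cholesterol import, measured 9.03, 10.46 and 8.96. Replicate 2 was 1.43 above the nearer of the other arrays, and the gene was called between replicate numbers (limma adjusted p = 1.43e-06). Its other probe set averaged 5.74 ± 0.13 and did not show this difference (limma adjusted p = 0.519). The cytochromes b5, which support steroid enzymes, had levels of 10.64 ± 0.43 (CYB5B) and 10.47 ± 0.13 (CYB5A). STARD3, a late endosomal cholesterol carrier, and POR, the electron donor of microsomal P450 enzymes, had levels of 8.68 ± 0.20 and 8.44 ± 0.21.

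FDXR, the reductase that feeds ferredoxin, had a level of 7.02 ± 0.25, close to the median of named genes. HSD3B2, an enzyme of the last step to progesterone, measured 7.41, 6.65 and 5.94 by its 1 probe set, highest in replicate 1 and lowest in replicate 3 (limma adjusted p = 9.47e-05). Thus 9 of 9 measured members of this list lay above the dim-signal reference on every array, with a median of 9.48, while HSD3B2 lay at the 46.9th percentile. By array the medians were 9.03, 10.46 and 8.96, which are the values of TSPO, the middle gene on each array. Of the 9 genes, 4 were highest in replicate 2, against 28.1% of all named genes.

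Enzymes of other steroid pathways had a median of 6.37, below that of all named genes, and 13 of 16 lay above the reference on every array. HSD11B1, which regenerates active glucocorticoid, measured 9.56, 10.15 and 8.85. HSD17B7, which acts in both estradiol and cholesterol synthesis, measured 10.66, 9.50 and 9.52, and HSD17B4, a peroxisomal enzyme, 9.07, 9.55 and 9.04. HSD11B1 was highest in replicate 2 and lowest in replicate 3, and HSD17B7 was highest in replicate 1. SRD5A3, a reductase that also acts in glycoprotein synthesis, had a level of 7.81 ± 0.67.

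CYP17A1, the enzyme that opens the androgen branch, measured 5.54, 5.89 and 5.69, and CYP19A1, aromatase, measured 4.92, 5.50 and 5.19. By these probe sets both were above the reference on every array, at the 29.9th and 20.9th percentile of named genes. Their values also lay within the span of the Bacillus controls, which reached 5.99. A second CYP17A1 probe set lay below the reference on every array, at 3.16 ± 0.20. Neither gene passed the replicate test (limma adjusted p = 0.0661 and 0.334). For CYP17A1 the limma fit without replicate 3 gave an adjusted p of 0.0243, which alone is not taken as a difference. The adrenal enzymes CYP11B1, CYP11B2 and CYP21A2, which make mineralocorticoid and glucocorticoid, had levels of 5.46 ± 0.53, 6.46 ± 0.31 and 6.49 ± 0.26. Second probe sets of CYP11B1 and CYP11B2 averaged 4.85 ± 0.18 and 4.95 ± 0.16. These 2 means and the CYP11B1 level of 5.46 also lay within the span of the Bacillus controls. H6PD and HSD17B2 were at or below the reference on all 3 arrays, with levels of 4.58 ± 0.05 and 4.05 ± 0.17.

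The transcription factors of luteal and ovarian cells had a median of 7.33, and 12 of 13 lay above the reference on every array. CEBPB, a factor induced by luteinizing hormone, was the brightest at 11.89 ± 0.34, followed by CREB1 at 8.71 ± 0.19 and SP1 at 8.53 ± 0.08. GATA6, which acts on steroid gene promoters, measured 8.74, 8.66 and 7.02, and WT1 measured 8.85, 7.86 and 7.29. GATA6 was lower in replicate 3 by 1.63 than on the nearer array, WT1 was highest in replicate 1, and both were called (limma adjusted p = 1.53e-06 and 1.81e-05). Without replicate 3, GATA6 was not called (limma adjusted p = 0.920). GATA4, the related factor, had a level of 6.44 ± 0.12 and was not called by that probe set (limma adjusted p = 0.589). Another GATA4 probe set measured 6.57, 5.92 and 5.57 and was called (limma adjusted p = 0.00266).

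NR5A1, the steroidogenic factor, measured 6.42, 6.41 and 6.80, near the median of named genes, with no call (limma adjusted p = 0.643). NR5A2, its relative, measured 6.87, 5.30 and 4.91 and was highest in replicate 1. CEBPA measured 5.96, 7.42 and 6.55, highest in replicate 2, and FOXO1, a target of insulin signalling, 7.80, 7.41 and 6.77, lowest in replicate 3. NR0B1, a repressor of NR5A1, was at or below the reference on all 3 arrays at 3.36 ± 0.14.

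Among receptors, the membrane-linked PGRMC1 and PGRMC2, which bind haem and are linked to progesterone action, were brightest at 11.34 ± 0.40 and 10.03 ± 0.33. ADCYAP1R1, the receptor of the peptide PACAP, had a level of 9.83 ± 0.07, and NR3C1, the glucocorticoid receptor, 8.34 ± 0.50. PGR, the nuclear progesterone receptor, measured 4.91, 4.63 and 4.41 and was above the reference on 1 array only. ESR1 also passed it on 1 array, with 4.53, 4.67 and 4.96, while ESR2, the other estrogen receptor, was above it on all 3 with 6.21, 6.14 and 6.51. IGF1R, the receptor of insulin-like growth factors, measured 7.68, 6.79 and 6.70, highest in replicate 1. GHR, the growth hormone receptor, had a level of 5.21 ± 0.34. The list median was 6.73, and 9 of 11 members lay above the reference on every array.

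All 13 measured genes for luteal hormones, growth factors and prostaglandin enzymes lay above the reference on every array, with a median of 7.57. INHBA, the subunit of activin A, measured 11.90, 12.38 and 12.06, and its binding protein follistatin, FST, 10.36, 10.87 and 9.88. INHA, the inhibin alpha subunit made by luteal cells of primates, measured 8.51, 7.50 and 7.88. INHBA and FST were highest in replicate 2, and INHA was highest in replicate 1. The binding proteins of insulin-like growth factors IGFBP3 and IGFBP5 measured 10.81, 10.94 and 9.66 and 7.36, 8.64 and 6.37, both highest in replicate 2 and lowest in replicate 3.

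RLN2, relaxin, a hormone of the primate corpus luteum, measured 11.65, 8.92 and 9.46. Replicate 1 was higher than the nearer array by 2.19, and the gene was called (limma adjusted p = 3.69e-08). HPGD, which inactivates prostaglandins, measured 8.99, 6.11 and 7.82, highest in replicate 1 and lowest in replicate 2 (limma adjusted p = 2.27e-07).

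Of the fixed steroidogenic markers, STAR, FDX1, HSD3B2, NR5A1 and INHA were measured, while CYP11A1, HSD3B1 and LHCGR were not analysed. Those measured all lay above the reference on every array, as did 83.2% of all named genes, so this alone does not check the label. STAR and FDX1 were in the top decile, and HSD3B2 and NR5A1 lay slightly below the median of named genes. Most listed markers of vessels, fibroblasts, macrophages and lymphocytes also lay above the reference, as described below. For endothelial markers this was 14 of 17, near the share of all named genes, with a median of 6.69 against 6.84. Their signal alone does not show that vessel cells were present. The cultures are therefore called luteal cells after their label, as a mixture.

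**Figure D2:**
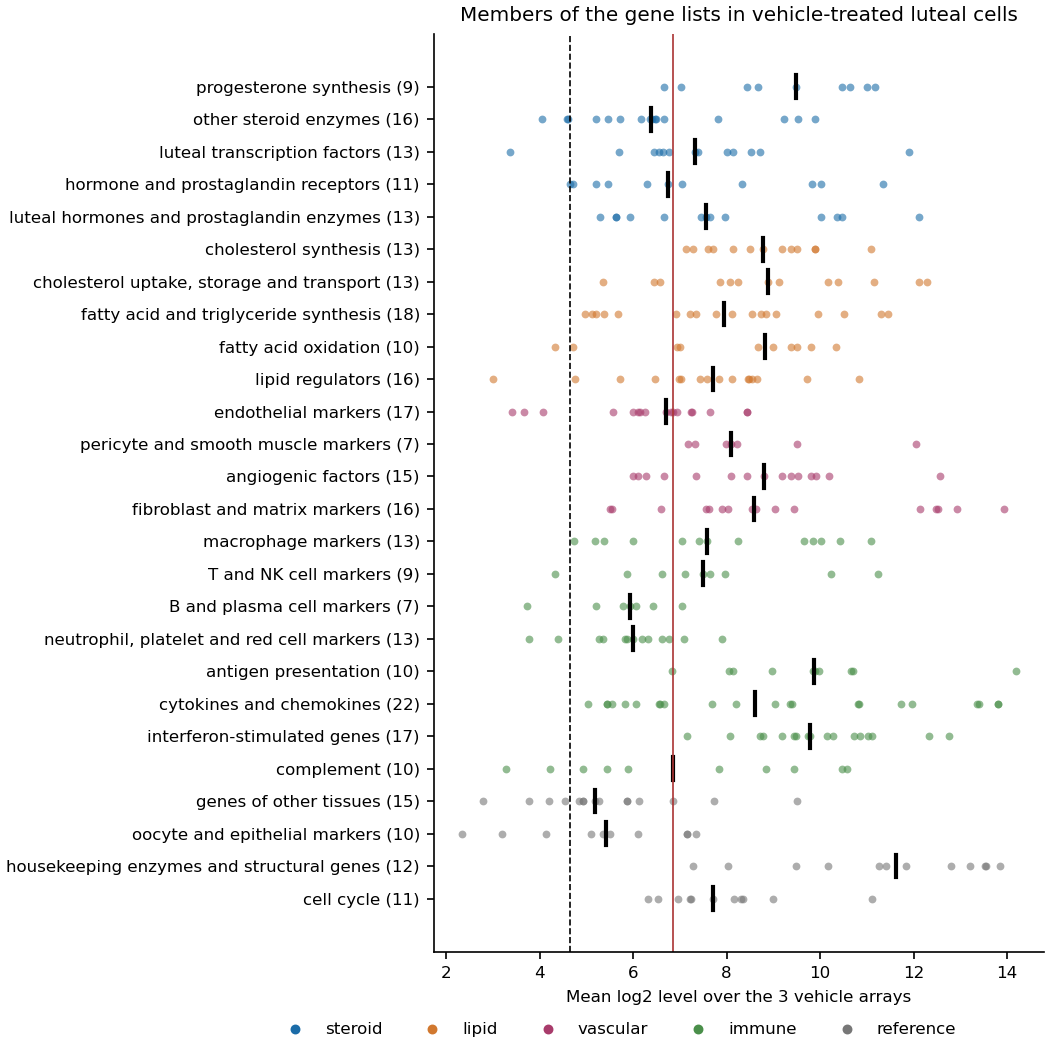
Mean log2 level over the 3 vehicle arrays for each measured member of 26 gene lists (points; number of measured members in brackets), with the list median as a black bar. The dashed line is the mean Bacillus reference of 4.66 and the solid line the median of all named genes, 6.84; the list median was 11.63 for housekeeping genes (8.76 without probe sets ending in _x_at or _s_at) and 5.18 for genes of other tissues.

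Lipid genes had a median of 8.34 over 70 measured of 105 listed, and 64 lay above the reference on every array. SCARB1, SOAT1 and PLIN2 are among the 35 not analysed here. The replicate test called 54 of the 70 (77.1%), against 46.2% of all named genes and 73.1% of those in the top decile of level. Without replicate 3 it called 38, against 24.5% of all named genes and 769 of the 1414 in the top decile.

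Cholesterol synthesis genes were all above the reference, 13 of 13, with a median of 8.77. FDFT1, squalene synthase, measured 11.96, 10.65 and 10.64. SQLE, squalene epoxidase, measured 10.56, 8.99 and 8.59, and CYP51A1, the lanosterol demethylase, 10.76, 9.59 and 9.35. In these 3 genes replicate 1 was above the nearer of the other arrays by 1.30, 1.57 and 1.17, and those arrays differed from each other by 0.01, 0.39 and 0.24.

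IDI1, an isomerase of the mevalonate branch, measured 10.50, 9.16 and 8.85, and DHCR7, which acts at the end of the pathway, 8.94, 7.32 and 6.54. NSDHL, which removes methyl groups from sterols, measured 9.38, 8.23 and 7.87. Replicate 1 was again highest, by 1.62 for DHCR7. The replicate test called 12 of 13 members, including FDFT1, SQLE and DHCR7 (limma adjusted p = 3.93e-06, 3.26e-06 and 2.46e-05). It called 46.2% of all named genes and 73.1% of those in the top decile of level.

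Replicate 1 held the highest value for 12 of the 13 members, the exception being MVK, mevalonate kinase (7.26, 7.24 and 7.35). That array held the highest for 33.1% of all named genes and 47.4% of those in the top decile of level. The other MVK probe sets were highest in replicate 1 (7.07, 6.48 and 6.45, and 7.21, 6.80 and 6.79), as were 25 of all 27 probe sets of the 13 genes. The count of genes was 12 after quantile normalization and 13 after centring each array on its median. After that centring replicate 1 was highest for 5816 of 14132 named genes, and for 773 of the 1414 in the top decile. None of the 3 MVK probe sets passed limma's replicate test (lowest adjusted p = 0.0514). Without replicate 3, 10 of 13 members were called, against 24.5% of all named genes and 769 of the 1414 in the top decile. Levels by array had medians of 9.38, 8.84 and 8.54.

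Genes of cholesterol uptake, storage and transport were bright as a list, with a median of 8.89 and 13 of 13 above the reference. CAV1, the coat protein of caveolae, had a level of 12.29 ± 0.48. NPC2 and NPC1, which export cholesterol from lysosomes, measured 11.54, 12.55 and 12.24 and 9.79, 10.57 and 10.14. Both were lowest in replicate 1 and highest in replicate 2. LIPA, the lysosomal lipase that frees cholesterol from its esters, measured 10.53, 11.25 and 11.66 and was also lowest in replicate 1.

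APOE, an apolipoprotein made by luteal cells and macrophages, measured 10.17, 10.92 and 10.09. STARD4, a cytosolic sterol carrier, measured 9.74, 8.33 and 9.31, lowest in replicate 2. CD36, a scavenger receptor, measured 5.31, 7.90 and 6.53 by its 1 probe set. It spanned 2.58 over the arrays, lowest in replicate 1 and highest in replicate 2 (limma adjusted p = 3.43e-06).

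VLDLR, a receptor for lipoproteins, measured 6.66, 7.09 and 5.56 and was lowest in replicate 3. ABCA1, the exporter of cholesterol and a liver X receptor target, measured 5.06, 5.44 and 5.58, at the 23.5th percentile of named genes. All 13 members were called between replicate numbers, against 46.2% of all named genes and 73.1% of those in the top decile of level. Without replicate 3, 8 were called, against 24.5% of all named genes and 769 of the 1414 in the top decile.

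**Figure D3:**
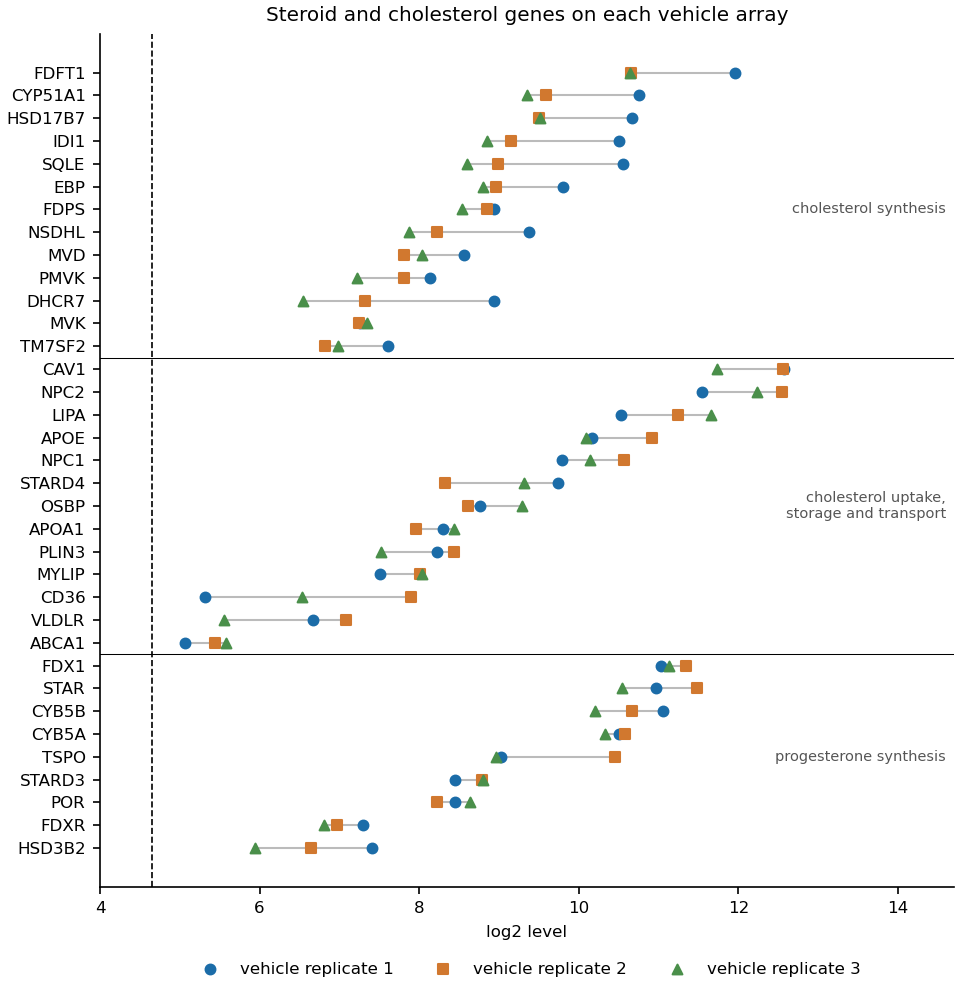
Log2 level on each of the 3 vehicle arrays for measured genes of progesterone synthesis, cholesterol synthesis, and cholesterol uptake, storage and transport, 1 row per gene, with a grey line from the lowest to the highest array and the Bacillus reference dashed. HSD17B7, a member of several lists, is drawn once; replicate 1 (circles) lay to the right for 12 of 13 cholesterol synthesis genes, and TSPO and STAR were highest in replicate 2 (squares).

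Fatty acid and triglyceride synthesis genes had a median of 7.95, and 16 of 18 lay above the reference on every array. FABP5, a fatty acid carrier, and ME1, the malic enzyme that supplies NADPH, had levels of 11.45 ± 0.29 and 11.29 ± 0.52. ACLY, which makes cytosolic acetyl-CoA, had a level of 10.51 ± 0.44, and FASN, fatty acid synthase, measured 8.74, 7.92 and 7.69. FASN was highest in replicate 1. ACSL1, which activates fatty acids, measured 8.88, 11.23 and 9.77, highest in replicate 2 by 1.46.

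GPAM, the first enzyme of glycerolipid synthesis, measured 9.21, 9.40 and 7.57, and FADS2, a desaturase, 9.27, 8.91 and 7.46. Both were lowest in replicate 3, by 1.63 and 1.44. ELOVL6, an elongase, measured 9.77, 8.37 and 8.41, highest in replicate 1. FABP4 and FABP3, fatty acid carriers of fat and muscle, passed the reference on 2 and 1 arrays, with 5.21 ± 0.73 and 4.97 ± 0.75.

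In fatty acid oxidation, CPT1A, the gate of mitochondrial import, had a level of 10.33 ± 0.43, ACADVL 9.81 ± 0.15, HADHA 9.51 ± 0.10 and ACADM 9.38 ± 0.20. HADHB, the partner of HADHA in the trifunctional protein, measured 8.95, 9.76 and 7.31, lowest in replicate 3. The electron transfer genes ETFB and ETFDH had levels of 8.99 ± 0.39 and 6.94 ± 0.47. The list median was 8.83. EHHADH, a peroxisomal enzyme, was at or below the reference on all 3 arrays at 4.33 ± 0.06.

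Lipid regulators had a median of 7.71, and 14 of 16 lay above the reference on every array. INSIG1, which retains the sterol sensor SCAP in the endoplasmic reticulum, was the brightest, with 11.22, 10.56 and 10.69, and MLX, a partner of carbohydrate-response factors, had a level of 9.71 ± 0.23. SREBF1 and SREBF2, the factors that drive fatty acid and cholesterol genes, measured 8.58, 9.20 and 7.82 and 8.71, 8.46 and 8.23. SREBF1 was highest in replicate 2, with limma adjusted p = 0.00571 as deposited and 0.0737 after quantile normalization. SREBF2 was not called by this probe set (limma adjusted p = 0.301), while 2 dimmer probe sets were (limma adjusted p = 0.00109 and 0.00352), both highest in replicate 1.

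The liver X receptors were both above the reference on all 3 arrays. NR1H2, the broadly expressed form, measured 7.91, 8.04 and 7.57. NR1H3, the form of liver, fat and macrophages, measured 5.98, 7.68 and 7.42. NR1H3 was lower in replicate 1 by 1.44 (limma adjusted p = 1.20e-05), and NR1H2 spanned 0.47 (limma adjusted p = 0.0218, but 0.431 after quantile normalization and 0.619 without replicate 3). INSIG2, a relative of INSIG1, measured 8.47, 9.24 and 7.64, highest in replicate 2 and lowest in replicate 3. PPARGC1A, a coactivator of mitochondrial genes, was the dimmest regulator, at or below the reference on every array with 3.00 ± 0.13.

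Of 72 listed genes of vessels, mural cells, fibroblasts and matrix, 55 were measured, 52 lay above the reference on every array and the median was 7.90. VEGFA and ACTA2 are among those not analysed here. The replicate test called 45 of the 55 (81.8%), against 46.2% of all named genes and 73.1% of those in the top decile of level.

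Endothelial markers lay around the median of named genes. PECAM1, an adhesion molecule of endothelial junctions, measured 8.17, 9.05 and 8.10, and CDH5, the endothelial cadherin, 7.48, 7.99 and 7.43. VWF, which endothelial cells store and release for clotting, measured 7.14, 7.50 and 7.07. Each was highest in replicate 2. PECAM1 and CDH5 were called (limma adjusted p = 0.000666 and 0.00722) and VWF was not (limma adjusted p = 0.056). For VWF the limma fit without replicate 3 gave an adjusted p of 0.0409, which alone is not taken as a difference.

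ENG, a coreceptor of transforming growth factor beta, measured 8.81, 9.10 and 7.43, and CLDN5, a claudin of endothelial junctions, had a level of 7.27 ± 0.18. LYVE1, a marker of lymphatic vessels and some macrophages, measured 6.46, 7.53 and 6.80, and PROX1, the lymphatic transcription factor, 6.11, 5.83 and 6.83. KDR and FLT1, the receptors of vascular endothelial growth factor, were at or below the reference on all 3 arrays, with 3.66 ± 0.16 and 3.41 ± 0.20, as was MMRN2 with 4.07 ± 0.14. The list median was 6.69, 14 of 17 members lay above the reference, and 12 of 17 were highest in replicate 2 (14 after quantile normalization), against 28.1% of all named genes.

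Mural cell genes had a median of 8.09, with all 7 above the reference. TAGLN, an actin-binding protein of smooth muscle, had a level of 12.05 ± 0.35, and MCAM 9.50 ± 0.67. MYH11 and CNN1, contractile genes of smooth muscle, measured 8.77, 7.44 and 8.05 and 8.70, 7.30 and 7.93, both highest in replicate 1 and lowest in replicate 2. KCNJ8, a potassium channel of pericytes, measured 6.56, 6.67 and 8.77, and replicate 3 was higher by 2.10 (limma adjusted p = 6.38e-07, and 0.787 without replicate 3). CSPG4, a proteoglycan of pericytes, had a level of 8.22 ± 0.40.

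Angiogenic factors and regulators had a median of 8.80, and 15 of 15 lay above the reference. THBS1, an inhibitor of angiogenesis, measured 12.87, 12.30 and 12.54. EPAS1, a hypoxia-inducible factor, measured 10.64, 10.86 and 9.04, and PDGFB, a growth factor for mural cells, 10.42, 9.81 and 9.49. EPAS1 was lower in replicate 3 by 1.60, and PDGFB was highest in replicate 1. ADM, the vasodilator adrenomedullin, measured 9.29, 10.68 and 9.44, and was highest in replicate 2.

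ANGPTL4, an inhibitor of lipoprotein lipase, measured 9.64, 10.58 and 8.37. SERPINF1, an antiangiogenic factor, measured 8.29, 9.75 and 7.25, and PDGFA 7.70, 8.19 and 6.10. These 3 genes were highest in replicate 2 and lowest in replicate 3, with ranges of 2.20, 2.50 and 2.09.

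Fibroblast and matrix genes held some of the brightest signals. FN1, fibronectin, had a level of 12.94 ± 0.25, DCN, the proteoglycan decorin, 12.53 ± 0.67, and COL1A2, a chain of type I collagen, 12.48 ± 0.50. The plates were coated with fibronectin protein, which adds no RNA. COL1A1, the other chain of type I collagen, measured 9.65, 10.07 and 8.62, and COL3A1, of type III collagen, had a level of 7.55 ± 0.75, highest in replicate 2. A second COL1A1 probe set averaged 4.22 ± 0.27.

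MMP9, a gelatinase, measured 11.35, 13.57 and 11.50. FAP, a protease of activated fibroblasts, measured 8.16, 10.19 and 7.56, and TIMP3, a matrix-bound protease inhibitor, 6.73, 7.60 and 5.48. MMP9 and FAP were higher in replicate 2 than on the nearer array by 2.07 and 2.02 (limma adjusted p = 1.76e-08 and 7.20e-08), and TIMP3 was lowest in replicate 3.

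SPP1, osteopontin, which is outside this list, measured 8.66, 11.77 and 8.10. It was also higher in replicate 2, by 3.11 (limma adjusted p = 8.32e-09). DPT, a matrix protein of dermis and stroma, measured 7.83, 8.49 and 6.57. Over the whole list 14 of 16 genes were highest in replicate 2, against 28.1% of all named genes. The count was the same after quantile normalization and after median-centring. Likewise 14 of 16 were lowest in replicate 3, against 42.3% of all named genes, with 13 after quantile normalization. List medians by array were 8.23, 9.49 and 7.91. Of the 16 members, 15 were called, against 46.2% of all named genes and 73.1% of those in the top decile of level.

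Of 131 listed immune genes, 101 were measured, 93 lay above the reference on every array and the median was 7.90. The replicate test called 66 of the 101 (65.3%), against 46.2% of all named genes and 73.1% of those in the top decile of level. These calls were spread unevenly over the lists. CD163 and CD3E are among those not analysed here.

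Macrophage genes lay mostly above the median of named genes. CD14, the coreceptor for lipopolysaccharide, measured 10.02, 11.83 and 11.39, and TYROBP, a signalling adaptor of myeloid cells, 9.17, 10.95 and 11.16. LYZ, lysozyme, measured 9.26, 10.50 and 10.33, and CD68, a lysosomal glycoprotein, 9.23, 10.05 and 10.23. In these genes replicate 1 was lowest, by 1.37, 1.79, 1.07 and 0.81, and each was called (limma adjusted p = 5.55e-07, 8.70e-08, 4.17e-06 and 2.21e-05).

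The complement chains C1QA and C1QB, made by macrophages, measured 5.85, 7.40 and 7.89 and 7.09, 8.81 and 8.84. CSF1R, the receptor for macrophage growth factor, measured 6.46, 7.74 and 8.03. MRC1, the mannose receptor, measured 9.88, 9.75 and 9.31 by its brightest probe set, highest in replicate 1. Its other probe sets measured 6.63, 9.43 and 8.39, and 3.56, 5.52 and 4.73, lowest in replicate 1 like the genes above. MSR1, a scavenger receptor, measured 4.81, 6.17 and 5.12.

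Replicate 1 was lowest for 11 of 13 macrophage genes, and for 16 of all 19 probe sets of these genes. By the brightest probe set the exceptions were MRC1 and ITGAM, an integrin above the reference on 2 arrays with 4.74 ± 0.13. The count of genes was 11 after quantile normalization and after median-centring, and the share among all named genes was 30.5%. The list medians were 7.09, 7.74 and 8.03, and 12 of 13 members lay above the reference on every array. The part of these cells in the replicate differences of NPC2, LIPA, APOE, CD36 and NR1H3, which macrophages also express, was not tested.

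Cytotoxic lymphocyte genes were above the median of named genes. GZMB, granzyme B, had a level of 11.23 ± 0.38, and GNLY, granulysin, measured 10.17, 9.29 and 11.21. NKG7, a granule protein, measured 7.15, 7.81 and 8.96, and CD8A, the coreceptor of cytotoxic T cells, 6.73, 7.47 and 8.74. GNLY, NKG7 and CD8A were highest in replicate 3, and GZMB (11.44, 10.80 and 11.47) had almost the same value in replicates 1 and 3. GZMA, granzyme A, measured 7.71, 6.48 and 7.11, highest in replicate 1 and called (limma adjusted p = 0.00132), and its other 3 probe sets were highest there too. CD7 was at or below the reference on all 3 arrays at 4.33 ± 0.32, and the list median was 7.50.

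B cell and plasma cell genes were dim, with a median of 5.94 and 6 of 7 above the reference. CD79B, a chain of the B cell receptor, was the brightest at 7.04 ± 0.33, followed by JCHAIN, which links antibody subunits, at 6.43 ± 0.47. CD79A and MS4A1, the CD20 antigen, had 5.78 ± 0.08 and 5.20 ± 0.23, MZB1 and BLK, of plasma and B cells, had 6.07 ± 0.35 and 5.94 ± 0.12, and TNFRSF17, a plasma cell receptor, was at or below the reference on every array at 3.72 ± 0.38.

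Neutrophil, platelet and red cell genes had a median of 5.99. PF4, a platelet chemokine, was the brightest at 7.90 ± 0.36, and HBA, a haemoglobin alpha chain with near-identical copies, had 7.09 ± 0.36. ITGA2B, a platelet integrin, had 6.76 ± 0.19. S100A8 and S100A9, calcium-binding proteins of myeloid cells, measured 5.33, 5.70 and 6.94 and 6.10, 6.54 and 7.19, both highest in replicate 3. PPBP, another platelet chemokine, passed the reference in replicate 2 only, with 3.78, 5.58 and 3.82, and S100A12 was at or below it on every array.

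Antigen presentation genes had a median of 9.88, with 10 of 10 above the reference. Next to B2M, TAPBP and PSMB8, which load and prepare peptides for class I molecules, had levels of 10.70 ± 0.27 and 10.66 ± 0.34, and TAP1, the peptide transporter, 9.85 ± 0.29. CTSS, a protease of the class II pathway, measured 9.15, 10.53 and 10.27, and CD74, the class II invariant chain, 7.53, 8.78 and 8.12. CTSS and CD74 were lowest in replicate 1, as were 9 of the 10 genes (7 after median-centring), against 30.5% of all named genes as deposited.

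Cytokine and chemokine genes spread widely, from 5.03 to 13.81, with a median of 8.62 and 22 of 22 above the reference. CXCL8, which attracts neutrophils, measured 12.95, 14.12 and 12.97, and CCL3, a chemokine of macrophages, 13.01, 13.52 and 13.67. IL6, an inflammatory cytokine, measured 11.72, 12.41 and 11.08, and IL1A, interleukin 1 alpha, 10.29, 12.06 and 10.11. CXCL8, IL6 and IL1A were highest in replicate 2, IL1A by 1.78.

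CCL8, a chemokine for monocytes, measured 6.81, 10.14 and 10.17 by its brightest probe set and was lower in replicate 1 by 3.33 (limma adjusted p = 6.43e-06). A second probe set was also lowest there (6.61, 8.63 and 9.18), and the other ran the opposite way (8.53, 8.15 and 7.57). CCL4L1, of a family with near-identical copies, measured 10.98, 12.41 and 12.51, also lowest in replicate 1. LIF, of the IL6 family, measured 9.39, 10.34 and 8.46, and IL18, an activator of lymphocytes, 6.02, 7.20 and 4.98. Both were highest in replicate 2 and lowest in replicate 3.

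Other cytokines of the list were dim. TNF had a level of 5.54 ± 0.09 by its 1 probe set, CSF1 5.44 ± 0.05 and IL12B 5.03 ± 0.20. The level of CXCL9, an interferon gamma target, was 4.80, 6.40 and 5.14 on the 3 arrays, highest in replicate 2, although CXCL10, its relative, had 10.83 ± 0.32.

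Interferon-stimulated genes had a median range of 1.82 over the arrays, against 0.46 for all named genes and 0.49 to 1.24 for the other immune lists. ISG15, a ubiquitin-like modifier, measured 11.89, 8.85 and 12.32, and IFIT1, which binds viral RNA, 11.43, 8.01 and 11.01. CMPK2, a mitochondrial nucleotide kinase, measured 10.92, 7.27 and 10.15. Replicate 2 was below the nearer of the other arrays by 3.04, 3.00 and 2.88 (limma adjusted p = 8.30e-09, 1.39e-08 and 8.15e-08).

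MX2 and IFIT2, antiviral effectors, measured 10.54, 8.03 and 10.62 and 11.52, 9.07 and 11.61. IFIT2 had 6 probe sets, and the others were dimmer and mixed, with the next brightest lowest in replicate 3 (8.85, 8.91 and 8.26). The brightest of the list were IFI27, 13.06, 11.91 and 13.30, IFIT3, 12.82, 11.17 and 13.00, and IFI44, 11.46, 10.10 and 11.75. These 5 were lowest in replicate 2 as well by these probe sets, and their values in replicates 1 and 3 differed by 0.08 for MX2 to 0.29 for IFI44.

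Replicate 2 was lowest for 16 of 17 interferon-stimulated genes, against 27.2% of all named genes, with 15 after quantile normalization and 16 after median-centring. The exception was IRF7, a regulator of interferon genes, with 8.64, 8.92 and 8.57 and no call (limma adjusted p = 0.114), but only by its brighter probe set. Its other probe set measured 8.23, 7.19 and 8.69, lowest in replicate 2 and called (limma adjusted p = 4.11e-05). Over all 35 probe sets of the 17 genes, a count added after seeing the data, 29 were lowest in replicate 2. The list medians were 10.83, 8.85 and 10.82, with replicate 2 apart. Of the 17 members, 16 were called, against 46.2% of all named genes and 73.1% of those in the top decile of level. Without replicate 3, 15 were called, against 24.5% of all named genes and 769 of the 1414 in the top decile. All 17 lay above the reference on every array.

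Complement genes had a median of 6.86, close to that of all named genes. CD55, which protects cells from complement, had 10.57 ± 0.45, the protease C1S 10.47 ± 0.13, its inhibitor SERPING1 9.44 ± 0.31 and CFB, of the alternative pathway, 8.83 ± 0.71. CFI, a complement inhibitor, measured 6.19, 5.96 and 5.51. C5 and C7, of the terminal pathway, were at or below the reference on all 3 arrays, with 3.28 ± 0.41 and 4.22 ± 0.10.

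**Figure D4:**
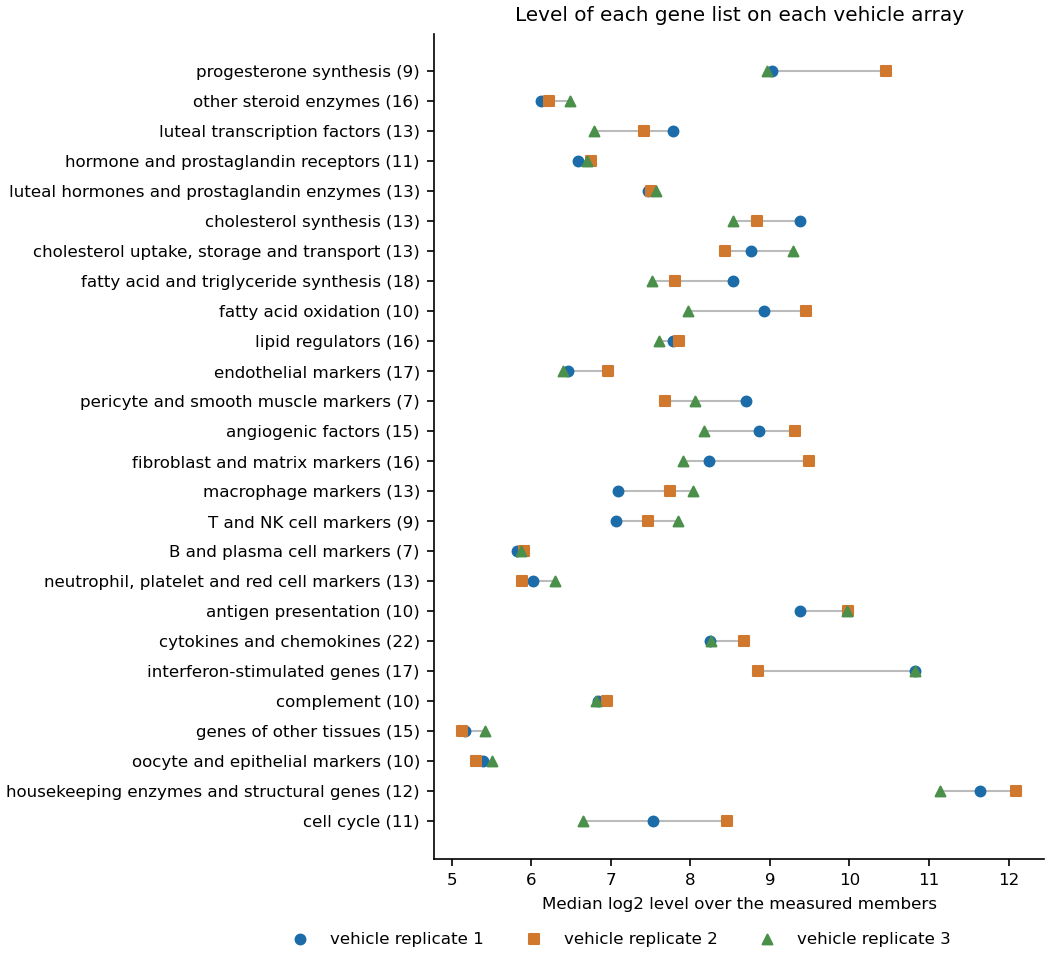
Median log2 level over the measured members of each gene list (number in brackets) on vehicle replicates 1, 2 and 3, with a grey line from the lowest to the highest array. Interferon-stimulated genes were lower in replicate 2 (8.85 against 10.83 and 10.82), fibroblast and matrix genes were higher in replicate 2 (9.49), and macrophage genes were lowest in replicate 1 (7.09).

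Genes that mark other tissues gave the low end of the scale. Their median was 5.18, and 9 of 15 lay above the reference on every array. FGB, a clotting protein of liver, GH1, growth hormone, and TSHB, a pituitary hormone subunit, were at or below it with 4.20 ± 0.34, 3.77 ± 0.36 and 2.78 ± 0.22. KRT10, a keratin of skin, had 9.50 ± 0.22, and GFAP, an astrocyte filament, measured 8.42, 7.10 and 7.68. These 2 genes lay above the median of named genes, although their list marks tissues other than the ovary. PRM1, TNNI3 and MBP, of sperm, heart and myelin, had levels of 6.85 ± 0.13, 6.12 ± 0.06 and 5.86 ± 0.51.

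Oocyte and epithelial genes had a median of 5.43. The oocyte factors FIGLA and BMP15 and the epithelial adhesion molecule EPCAM were at or below the reference on every array, with 4.13 ± 0.27, 3.19 ± 0.08 and 2.34 ± 0.12. ZP1 and ZP3, of the egg coat, had levels of 7.15 ± 0.29 and 7.16 ± 0.25, KRT18 7.35 ± 0.53 and KRT8 6.11 ± 0.69.

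Housekeeping genes had a median of 11.63, and all 12 were above the reference. Without probe sets ending in _x_at or _s_at, 8 members were left with a median of 8.76, below those of progesterone synthesis (9.98), antigen presentation (9.81) and interferon-stimulated genes (9.79). LDHA, lactate dehydrogenase, measured 13.32, 13.57 and 12.72, GAPDH 11.42, 11.99 and 10.83 and TPI1, both of glycolysis, 11.39, 11.97 and 10.39. PKM, pyruvate kinase, measured 9.54, 10.21 and 8.69, and EEF2, a translation factor, 7.63, 7.53 and 6.71. Replicate 3 was lowest for all 12 genes as deposited and after median-centring, and for 11 after quantile normalization. Replicate 3 also had the lowest value for 52.5% of the 1414 genes in the top decile of level. This share was 36.4% after quantile normalization, and 952 of the 1414 were lowest there after median-centring. The 3' excess of replicate 3 was larger too, and the part of RNA quality or array in these counts was not tested.

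Cell cycle genes had a median of 7.70, with 11 of 11 above the reference. PCNA, the replication clamp, measured 11.47, 11.31 and 10.55, and MCM2, of the replicative helicase, 9.62, 9.11 and 8.26. TYMS, which makes thymidylate, measured 8.82, 9.04 and 7.21. These 3 genes of DNA replication were lowest in replicate 3.

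CDK1, the mitotic kinase, measured 7.53, 8.37 and 5.72, and its partners CCNB1 and CCNB2 7.50, 8.95 and 6.65 and 5.94, 7.64 and 5.38. MKI67, a marker of cycling cells, measured 6.50, 7.26 and 5.82 and TOP2A, a topoisomerase of dividing cells, 7.16, 8.28 and 6.28. These 5 were highest in replicate 2 and lowest in replicate 3. Of the 11 genes, 10 were lowest in replicate 3 under each of the 3 scalings, the exception being AURKB (7.94, 8.46 and 8.54). Among all named genes replicate 3 was lowest for 42.3% as deposited, 38.1% after quantile normalization and 7752 of 14132 after median-centring. All 11 were called, against 46.2% of all named genes and 73.1% of those in the top decile of level. Replicate 3 also had the larger 3' excess, and the part of RNA quality or array in this was not tested.

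Across all named genes the replicate test called 6527, of which 1827 (28.0%) spanned 1 or more log2 units over the vehicle arrays. The median range of the called genes was 0.75. Replicate 3 was the array farthest from the middle one in 3840 of them (58.8%), being lowest in 2552 and highest in 1288. Replicates 1 and 2 were farthest in 1440 and 1247. Without replicate 3 there were 3463 calls, of which 3156 were among the 6527.

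The 12 called genes with the largest ranges were single genes of many functions. TDO2, which breaks down tryptophan, measured 9.30, 10.14 and 5.01 in vehicle and 9.03, 9.95 and 5.25 on the same-numbered T0901317 arrays. DSP, desmoplakin of cell junctions, measured 9.01, 7.15 and 4.19 in vehicle and 8.67, 7.03 and 4.49 on the second arrays. Both were lowest in replicate 3 in either set of arrays. The 12 genes were drawn from those called over all 6 arrays, and such a call favours same-numbered arrays that agree. The agreement shown for these genes is therefore part of their selection and no separate support.

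Lymphocyte receptors of natural killer cells differed as well. KIR3DL12 measured 5.38, 8.84 and 10.27 and KLRC1 3.99, 8.80 and 8.27, both lowest in replicate 1. These genes belong to families with near-identical, polymorphic copies, so the signal of a probe set may come from more than 1 gene. The same-numbered arrays gave 5.59, 8.53 and 10.51 for KIR3DL12 and 3.94, 8.82 and 8.29 for KLRC1. KLRC1 had 6 probe sets, and in vehicle the next brightest averaged 5.63 and the dimmest 3.51.

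Another 4 genes were high in replicate 2: GALNT12, which starts mucin-type glycosylation, SFRP2, a secreted modulator of Wnt signals, UBD, a ubiquitin-like protein induced by inflammatory cytokines, and RNASE10. SFRP2 measured 8.04, 10.96 and 6.74, UBD 5.22, 8.62 and 4.71, GALNT12 7.34, 10.10 and 5.74 and RNASE10 6.09, 8.90 and 5.03. In each, replicate 3 was lowest and replicate 2 exceeded the nearer array, by 2.76 for GALNT12 to 3.40 for UBD. The other GALNT12 probe set averaged 6.19.

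ANKRD29 and CHGB, a protein of secretory granules, were high in replicate 1 only. CHGB measured 7.29, 3.36 and 3.46, so that it lay above the reference on 1 array, and ANKRD29 measured 9.07, 5.16 and 4.95. AMBP, the precursor of a plasma lipocalin and a protease inhibitor, measured 9.66, 6.39 and 10.78, lowest in replicate 2. Its other probe set averaged 5.97. GXYLT2, a xylosyltransferase that modifies Notch, measured 8.19, 8.54 and 4.68, lowest in replicate 3. The adjusted p of the 12 genes in limma's F-test ran from 8.30e-09 for KLRC1 to 3.29e-07 for GXYLT2.

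**Figure D5:**
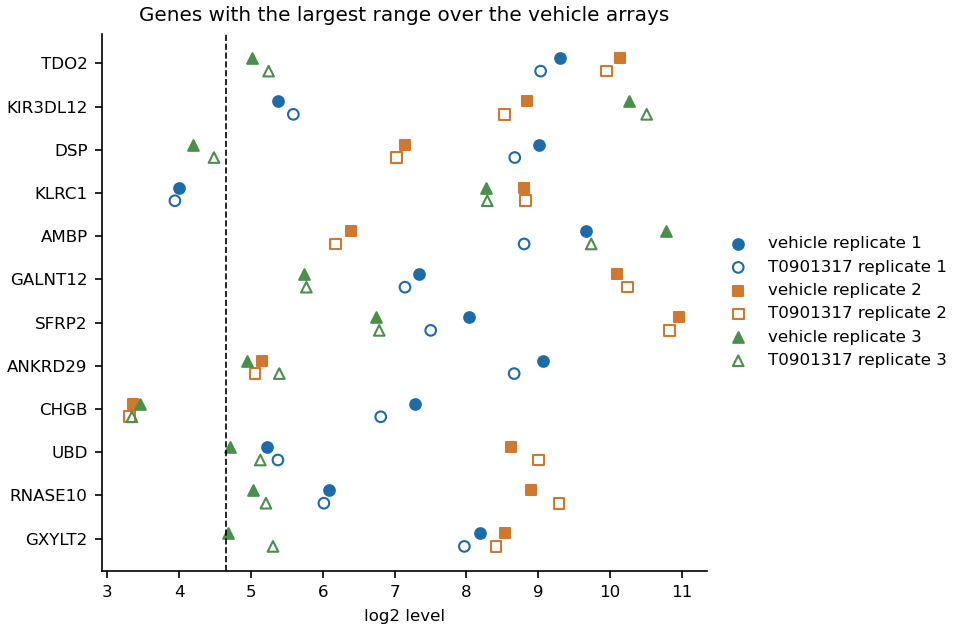
Log2 level of the 12 called genes with the largest range over the vehicle arrays; filled symbols are the 3 vehicle arrays, open symbols the T0901317 arrays of the same number, and the dashed line the mean Bacillus reference. Open and filled symbols of 1 number lie close together, which the call over all 6 arrays selected for. TDO2 ran from 5.01 in replicate 3 to 10.14 in replicate 2.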

How the data were processed

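RNA of 6 cultures, 3 per group, was measured on 6 arrays of rhesus macaque probe sets. Per the submitters' processing notes, the authors made the deposited log2 values with RMA, a method that corrects background, normalizes arrays and summarises probes; the sources used here give neither its version nor whether the 6 arrays were processed together. No per-array counts or scanner signals were used here, and precision is limited by how few arrays there are.

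Of 52865 probe sets per array, 99 controls were left out of the tests. Gene names came from the platform's annotation: 24956 of the other 52766 had 1 symbol, 361 had several and 27449 had none. Of the 1-symbol probe sets, 24616 had a gene number in a RefSeq gene table, and 0 symbols changed. Each named gene was represented by the probe set whose mean over all 6 arrays was highest. Levels are means ± SD over 3 vehicle arrays and have no test.

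Replicate numbers were compared with limma 3.58.1 in R 4.3.3 (treatment as covariate, moderated F-test with a trend, 2 residual degrees of freedom, Benjamini-Hochberg over 52766 probe sets, threshold 0.05). With a replicate left out, the residual degrees of freedom were fewer. The fit was run on simulated data with independent noise of the same spread for every probe set. Such data lack the unequal spreads and the 3' excess of the real arrays, so they do not show how reliable the calls here are. Python 3.11.15, numpy 2.4.6, pandas 2.3.3 and matplotlib 3.10.9 served for the rest.

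The members and the 26 gene lists were chosen with earlier results of these data known. Genes named are the 20 brightest (ribosomal protein genes counted only, provisional symbols passed over), from each list the 4 brightest, the 4 with the largest range and those at or below the dim-signal reference, the 12 called genes with the largest range, and a fixed set of luteal, lipid, vascular and immune genes; further list members are named where they complete a group, and were chosen after their values were seen. Alternatives were other ways to represent a gene, other references, quantile normalization, median-centring, other fits and leaving out each replicate.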

Additional observations from a re-analysis of the deposited data

Results flagged for a closer look

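Probe sets without a usable name carried signal that the report does not describe. Of the 27449 probe sets with no symbol, 14652 (53.4%) lay above the dim-signal reference on all 3 vehicle arrays, with a median level of 5.07 over all of them, and 108 had a mean level above 12, against 219 named genes. Of the 361 probe sets with several symbols, 280 (77.6%) lay above the reference on all 3 arrays. These signals belong to transcripts that were not named here.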

How the results depend on the processing

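Levels are signals of chosen probe sets, so they moved most with the way a gene is represented. With the mean of a gene's probe sets, the list medians were: progesterone synthesis 7.61, other steroid enzymes 5.93, luteal transcription factors 6.54, hormone and prostaglandin receptors 6.19, luteal hormones and prostaglandin enzymes 7.46, cholesterol synthesis 8.19, cholesterol uptake, storage and transport 8.06, fatty acid and triglyceride synthesis 7.41, fatty acid oxidation 7.99, lipid regulators 7.12, endothelial markers 6.12, pericyte and smooth muscle markers 7.33, angiogenic factors 7.70, fibroblast and matrix markers 7.70, T and NK cell markers 6.11, B and plasma cell markers 4.95, antigen presentation 8.72, cytokines and chemokines 7.98, complement 6.32, genes of other tissues 4.93, oocyte and epithelial markers 5.23. Without probe sets marked _x_at or _s_at they were: hormone and prostaglandin receptors 6.89, luteal hormones and prostaglandin enzymes 7.06, cholesterol synthesis 8.32, lipid regulators 7.53, T and NK cell markers 7.09, B and plasma cell markers 5.20, cytokines and chemokines 7.94, genes of other tissues 4.93, housekeeping enzymes and structural genes 8.76. The housekeeping list lost 4 of 12 members in that setting. With each replicate left out in turn, list medians that moved by more than the spread of the array medians ran as follows: luteal hormones and prostaglandin enzymes 7.51 to 7.56, T and NK cell markers 7.10 to 7.72, B and plasma cell markers 5.86 to 5.97, neutrophil, platelet and red cell markers 5.92 to 6.21, cytokines and chemokines 8.33 to 8.78. The other list medians moved by less than that spread under these settings, and all 26 did so under quantile normalization. That spread is wide where the arrays differ, so a list can stay within it and still move far. With a replicate left out, interferon-stimulated genes ran from 9.34 to 10.58, cell cycle genes from 7.08 to 8.20 and fibroblast and matrix markers from 8.07 to 8.98.

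Of the 20 brightest genes, 6 stayed with the mean of probe sets, 11 without the marked probe sets, 19 after quantile normalization and 16 to 20 with a replicate left out. Genes above the reference numbered 8992 with the highest Bacillus control as reference and 13743 with their median, against 11763, and 11828 to 11950 with a replicate left out. Calls between replicate numbers ranged from 3463 (without replicate 3) to 5986 (without replicate 1) with a number left out, and from 5731 to 6700 under the other settings; quantile normalization gave 6056, of which 5066 were shared. No paired analysis was possible because the replicate number is itself the tested term and the vehicle levels come from no test.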
